A study of Mus musculus with 18 samples.

Results

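The experiment described here is the silencing of Erk3 (gene symbol Mapk6) in C2C12 myotubes kept in BSA medium. It takes the 3 libraries given siRNA against Erk3 in that medium, siErk3_BSA, and the 3 libraries given non-targeting siRNA in the same medium, siNTC_BSA, which makes 6 of the 18 libraries of the series. C2C12 is an established mouse myoblast line that fuses into multinucleated myotubes when serum is lowered. In both groups, confluent myoblasts were transfected with a pool of siRNAs, differentiated for 6 days and kept for the last 16 h in serum-free medium with the BSA vehicle. The other 12 libraries hold siMk5_BSA, the silencing of the kinase Mk5 in the same medium, and siNTC, siErk3 and siMk5 in medium with 0.5 mM palmitic acid bound to BSA. The question is which transcripts differ between myotubes with and without Erk3 silencing when no fatty acid is added, with weight on genes that are neither interferon-stimulated nor fiber-type genes and on genes that fall.

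Poly(A)-selected RNA was sequenced, and read pairs were counted for each gene. The table holds 55414 genes, of which the 21772 whose counts over all 18 libraries sum to 10 or more were tested. The libraries hold 13041979, 23615343 and 20651004 counts in siNTC_BSA replicates 1, 2 and 3, and 22431247, 22416722 and 26995675 in siErk3_BSA. siNTC_BSA 1 is the shallowest of all 18 libraries, which reach 28496727, so low-level genes are least precise there. It also stands apart from the other controls across genes: the chi-square per gene between libraries, Rn18s-rs5 left out, had a mean of 5.83 and 4.66 (median 1.25 and 1.14) against siNTC_BSA 2 and 3, and of 1.61 (median 0.61) between those 2. Pairs of silenced libraries had means of 2.16 to 2.25. Levels are given in CPM, the count scaled to the library size after TMM scaling, a normalization that assumes most genes do not change. Changes are log2 fold changes of siErk3_BSA over siNTC_BSA with their standard error (SE), from edgeR's quasi-likelihood test over all 18 libraries. Its p-values were adjusted by the Benjamini-Hochberg method over all genes tested and are called the edgeR adjusted p. A gene is said to have risen or fallen if this value was below 0.05 and the fold change was above 1.3 in either direction. The libraries come from 1 cell line, and the labels do not say whether replicates are separate cultures, so the p-values measure only the spread between these libraries.

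Erk3 is an atypical mitogen-activated protein kinase. Its activation loop carries a single phosphorylation site, the protein is short-lived, and its best known partner is the kinase Mk5 (gene symbol Mapkapk5), which it binds and activates. Palmitic acid is a saturated fatty acid that is given to cells bound to albumin, so that medium with albumin alone is its vehicle control.

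The silenced gene was read first, as a check of the labels. Mapk6 (ENSMUSG00000042688, chr9:75276344-75317287 on the minus strand of GRCm39) was at 135, 129 and 133 CPM in siNTC_BSA and 56.6, 60.4 and 55.2 CPM in siErk3_BSA. All 3 silenced libraries lay below all 3 control libraries, and the mean fell to 43.4% of the control (log2 fold change -1.20, SE 0.06, edgeR adjusted p = 1.77e-14). The exact two-sided permutation test of 3 against 3 libraries gave p = 0.1, the smallest it allows, for Mapk6 and also for Mapkapk5. In bulk RNA, fewer cells of a type and less RNA per cell cannot be told apart, here and for each gene below. Mapkapk5 was at 2.46 ± 0.126 CPM in siNTC_BSA and 2.11 ± 0.109 CPM in siErk3_BSA (n = 3 each), and its difference did not pass the test (log2 fold change -0.22, SE 0.19, edgeR adjusted p = 0.75). Among the 17 genes of the list of Erk3 relatives and partners, Mapk6 was the only member called, and the closest relative, Mapk4, was at a log2 fold change of 0.40 with an edgeR adjusted p of 0.461.

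The libraries carried the transcripts of differentiated muscle. The summed level of the 10 myotube markers lay between 16160 and 18080 CPM in the 6 libraries, with Ttn at 529983 counts and Acta1 at 458181 counts over these libraries. Myh3 rose and was the only one of those 10 to be called. No marker of another cell type was called by edgeR or by DESeq2, with 3 reserve myoblast, 3 fibroblast, 1 osteoblast and 1 neural marker at an unadjusted p below 0.05, a threshold passed by 10.6% of all genes tested. Of the leukocyte markers, Ptprc had 1 count and Adgre1, Tyrobp and Cd3e had 0 over the 6 libraries, while Cd14 had 805, Cd68 155 and Lyz2 65. Of the adipocyte markers, Adipoq had 1 count, Plin1, Cidec, Retn and Cfd had 0, and Pparg was the most abundant with 613 counts. Of the endothelial markers Kdr and Emcn were at 0, and of the neural markers Rbfox3.

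Erk3 silencing in BSA medium changed 171 of the 21772 genes, or 0.785%, and 2316 (10.6%) had an unadjusted p below 0.05. Of these, 128 rose (0.588%) and 43 fell (0.198%). The rises split into 64 members of the interferon-stimulated list, 6 members of the fiber-type lists and 58 genes outside them, while all 43 genes that fell lay outside these lists. The groups did not overlap for 168 of the 171, against 3794 of all genes tested, or 17.4%. Genes that fell did so by a median log2 fold change of -0.76, from -2.62 to -0.39, and genes outside the lists rose by a median of 0.58, from 0.38 to 2.86, where the median over all genes tested was 0.02. The median level of the fallen genes was 4.87 CPM and that of the risen genes outside the lists 8.55 CPM, against 3.91 CPM over all genes tested. The total of changed genes was 113 without siNTC_BSA 2 and 111 with the share of 18S counts as a covariate, a fit chosen after seeing the data.

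**Figure D1:**
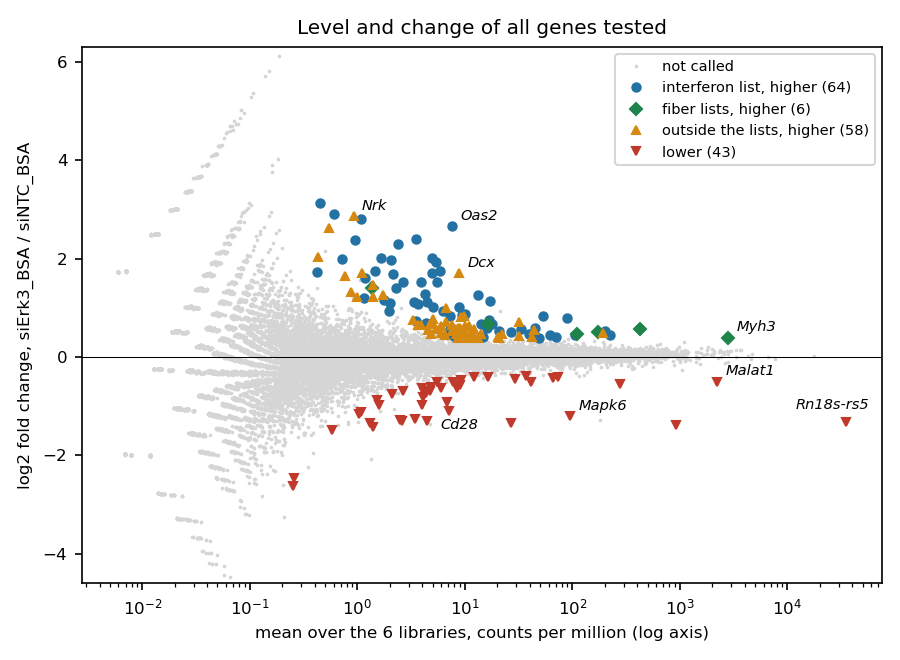
Each point is a gene tested, by its mean level over the 6 libraries in CPM (log axis) and its log2 fold change in siErk3_BSA against siNTC_BSA. Colored symbols mark the 64 interferon list genes, 6 fiber list genes and 58 other genes that rose and the 43 that fell, and grey points mark genes that were not called.

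Of the 43 genes that fell, 37 have a name and 6 are predicted genes, and 34 code for protein. Their number depends on single libraries more than that of the genes that rose. It was 18 without siNTC_BSA 2, 26 without siNTC_BSA 3 and 14 without siErk3_BSA 2, and with the 18S share as a covariate it was 10, of which 8 were among the 43. The sizes changed less than the calls. With the covariate the median log2 fold change of the 43 was -0.59, against -0.76, and 32 of them kept at least 75% of their log2 fold change and 7 less than 50%. The median SE was 0.18, against 0.16. The fall was at least as large with the covariate for 12 of the 43, whereas Lars2 went from -1.38 to -0.30 and Lgr6 from -0.61 to -0.13. How far size and SE each contributed to the lost calls was not tested. The count was larger with other sets of genes or libraries in the fit, 81 where a gene needed only 1 count in total and 70 with only the 6 libraries. The fit with 1 count gave extreme adjusted p, such as 0 for Rn18s-rs5 and 6.99e-120 for Mapk6, so its 81 falls are to be read with care. No fallen gene changed sign in these settings except under the 18S covariate, where Rn18s-rs5 and the unnamed gene ENSMUSG00000118642, chosen after its values were seen, came to 0.04 and 0.08. Mapk6, Cd28, Apol8, Asprv1, Cxcr6, Cmbl and Spink4 were called lower in every one of 14 alternatives run, of which 6 left out single libraries.

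The falls are described here by what their proteins are known for, a sorting made by hand that was not tested, beginning with receptors and secreted proteins known from immune cells. Cd28, the costimulatory receptor of T cells, was at 7.03, 6.63 and 5.58 CPM in siNTC_BSA and 2.54, 2.02 and 3.15 CPM in siErk3_BSA. The highest silenced library lay well below the lowest control library, and the mean was 40.1% of the control (log2 fold change -1.29, SE 0.14, edgeR adjusted p = 1.24e-06). Cxcr6, the receptor of the chemokine Cxcl16, was at 5.198, 5.29 and 5.34 CPM in siNTC_BSA and 2.37, 2.49 and 3.15 CPM in siErk3_BSA, with control libraries close together and a silenced mean of 50.5% of them (log2 fold change -0.97, SE 0.16, edgeR adjusted p = 0.000294). The transcript of the chemokine Cxcl14 was more abundant, at 45.7, 53.1 and 46.9 CPM in siNTC_BSA and 33.6, 32.9 and 36.6 CPM in siErk3_BSA (log2 fold change -0.50, SE 0.13, edgeR adjusted p = 0.0389). Its call was lost when any one of the 6 libraries was left out, with adjusted p between 0.0688 and 0.241, with DESeq2 (0.251), with edgeR's filterByExpr (0.0545) and with the 18S covariate (0.332). The semaphorin gene Sema4d fell from 12.4, 14.6 and 14.7 to 10.01, 10.7 and 11.1 CPM (log2 fold change -0.40, edgeR adjusted p = 0.0493). Its call held only when siNTC_BSA 1 was the library left out, with adjusted p of 0.123 to 0.237 without the others, 0.0623 with the replicate number as a block and 0.461 with the 18S covariate. Of other T cell and leukocyte genes, Cd3e and Ptprc were at 0 and 1 counts, whereas Cd3g rose and Cd14 had 805 counts. The cell source of the Cd28 and Cxcr6 counts was not tested.

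Apol8, a member of the apolipoprotein L family, was at 3.51, 3.67 and 3.83 CPM in siNTC_BSA and 1.56, 1.14 and 1.75 CPM in siErk3_BSA. The silenced libraries lay at 40.5% of the control on average, without overlap (log2 fold change -1.30, SE 0.18, edgeR adjusted p = 4.94e-05). It is the one fallen gene for which the test of the difference between media passed, as described with the palmitic acid libraries. On chromosome 15, 11416 bases lie between it and Apol9b, a member of the same family on the interferon list that rose and was chosen after its values were seen. Counts of close family members can share read pairs that fit more than 1 of them, so values of the Apol genes carry that uncertainty.

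Asprv1, Spink4 and Card14 are known from epidermis and other epithelia, and Mxd1 and Padi4 are given beside them. Asprv1, the retroviral-like aspartic protease of the skin barrier, was at 3.51, 3.54 and 3.405 CPM in siNTC_BSA and 1.65, 1.48 and 1.22 CPM in siErk3_BSA, so that each silenced library had less than 50% of each control library (log2 fold change -1.28, SE 0.18, edgeR adjusted p = 7e-05). Mxd1, the Max-binding repressor that opposes Myc, lies 17332 bases from it on chromosome 6 and was at 33.7, 33.8 and 33.9 CPM in siNTC_BSA and 27.04, 22.6 and 24.8 CPM in siErk3_BSA (log2 fold change -0.45, SE 0.07, edgeR adjusted p = 0.000134). The control libraries of Mxd1 were almost equal, and the lowest value was in siErk3_BSA 2, without which its log2 fold change was -0.38 and the fold criterion was missed, as it was with the 18S covariate, at -0.38. Spink4, an inhibitor of serine peptidases made by goblet cells, was at 1.83, 2.04 and 1.75 CPM in siNTC_BSA and 0.718, 0.506 and 0.966 CPM in siErk3_BSA, with the silenced mean at 38.99% of the control and no overlap (log2 fold change -1.34, SE 0.25, edgeR adjusted p = 0.00243). Card14, a scaffold of NF-kB signaling in keratinocytes, fell (4.21, 5.501 and 5.86 against 3.59, 2.49 and 3.51 CPM, log2 fold change -0.72, edgeR adjusted p = 0.0183), but not without siNTC_BSA 2, siNTC_BSA 3 or siErk3_BSA 2, where the adjusted p was 0.125, 0.14 and 0.169, and not with the 18S covariate (0.236). Padi4, an enzyme that turns arginine residues into citrulline, was at 5.62, 5.63 and 5.201 against 2.62, 3.46 and 3.76 CPM (log2 fold change -0.73, edgeR adjusted p = 0.0275). Its call held only where siErk3_BSA 3 was the library left out, with adjusted p from 0.0685 to 0.186 without any of the others and 0.43 with the 18S covariate.

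**Figure D2:**
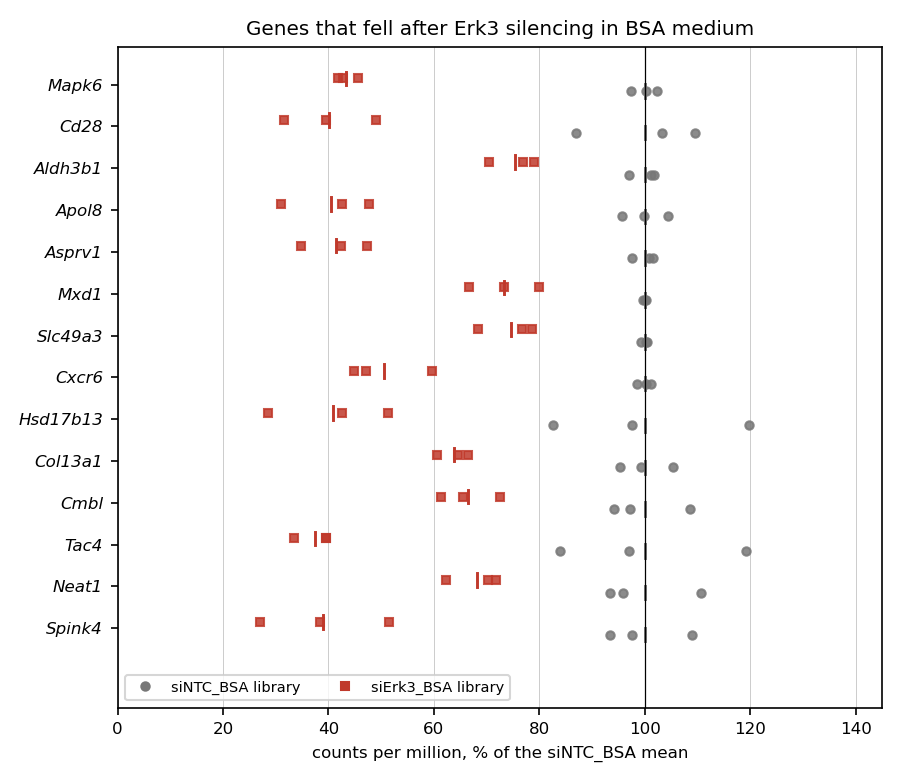
Points are single libraries of siNTC_BSA (circles) and siErk3_BSA (squares) as a percentage of the siNTC_BSA mean, for 14 named fallen genes of small adjusted p whose groups do not overlap, and bars are group means. Mapk6, Cd28, Apol8, Asprv1, Hsd17b13, Tac4 and Spink4 have silenced means between 37.5% and 43.4% of the control, whereas Aldh3b1, Mxd1 and Slc49a3 lie between 73.3% and 75.5%.

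Enzymes and carriers of metabolism come next. Aldh3b1, an aldehyde dehydrogenase that oxidizes aldehydes from lipids, was among the better expressed of them, at 81.98, 85.5 and 85.9 CPM in siNTC_BSA and 66.7, 59.5 and 64.97 CPM in siErk3_BSA. The drop to 75.5% of the control left no overlap between the groups (log2 fold change -0.41, SE 0.05, edgeR adjusted p = 2.21e-05), and without siErk3_BSA 2 the log2 fold change of -0.35 missed the fold criterion, as did -0.33 with the 18S covariate. Aldh3b3, its relative 28837 bases away on chromosome 19, fell from 4.71, 5.04 and 4.82 to 3.63, 2.28 and 3.54 CPM (log2 fold change -0.62, edgeR adjusted p = 0.0244). Unc93b1, chosen after its values were seen, lies between both genes and was not called, with a log2 fold change of -0.04. The Aldh3b3 call was lost without any one control library or siErk3_BSA 2, at adjusted p of 0.0521 to 0.229, and with the 18S covariate, at 0.349. Hsd17b13, a protein of lipid droplets, was at 5.83, 4.75 and 4.02 CPM in siNTC_BSA and 2.49, 1.39 and 2.08 CPM in siErk3_BSA, with siErk3_BSA 2 the lowest and no overlap (log2 fold change -1.26, SE 0.22, edgeR adjusted p = 0.000858). With the 18S covariate its adjusted p was 0.0679. Cmbl, a hydrolase, went from 11.7, 10.2 and 10.5 to 6.63, 7.08 and 7.83 CPM (log2 fold change -0.57, SE 0.10, edgeR adjusted p = 0.00156), a fall to 66.5% of the control mean. Slc49a3, a member of a solute carrier family, was at 75.7, 74.9 and 75.8 CPM in siNTC_BSA and 57.97, 51.7 and 59.4 CPM in siErk3_BSA, with control libraries almost equal (log2 fold change -0.42, SE 0.06, edgeR adjusted p = 0.000153). It too missed the fold criterion without siErk3_BSA 2, at -0.35, and with the 18S covariate, at -0.37.

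Some further falls of metabolic genes are of genes known from muscle. Cox8b, the muscle form of a small subunit of cytochrome c oxidase, was at 6.32, 7.96 and 7.38 CPM in siNTC_BSA and 4.73, 4.597 and 4.87 CPM in siErk3_BSA (log2 fold change -0.63, SE 0.12, edgeR adjusted p = 0.00377). Its ubiquitous relative Cox8a, chosen after its values were seen, was at a log2 fold change of 0.06 and was not called. Without siNTC_BSA 2 the adjusted p of Cox8b was 0.0793, and with the 18S covariate 0.192. Car3, a carbonic anhydrase abundant in slow muscle and fat, fell from 5.41, 5.92 and 6.43 to 3.13, 3.21 and 4.65 CPM (log2 fold change -0.69, edgeR adjusted p = 0.0146). Ppp1r3c, which brings a protein phosphatase to glycogen, fell from 3.23, 3.63 and 2.98 to 2.03, 1.94 and 2.11 CPM (log2 fold change -0.70, edgeR adjusted p = 0.0167). Car3 lost its call without siNTC_BSA 2, siNTC_BSA 3, siErk3_BSA 1 or siErk3_BSA 2, at adjusted p of 0.0725 to 0.128, and Ppp1r3c without siNTC_BSA 2 or any one silenced library, at 0.0581 to 0.175. Neither passed with the 18S covariate, at 0.259 for Car3 and 0.175 for Ppp1r3c, although the log2 fold changes there were -0.60 and -0.70. Asb14, an ankyrin repeat protein with a SOCS box, was at 4.42, 6.25 and 4.68 CPM in siNTC_BSA and 2.87, 2.99 and 3.005 CPM in siErk3_BSA (log2 fold change -0.81, SE 0.16, edgeR adjusted p = 0.00419). The silenced libraries were nearly equal, and the highest control value was in siNTC_BSA 2, without which its adjusted p was 0.143, while with the 18S covariate it was 0.217. Slc5a5, the sodium iodide symporter, was at 2.599, 2.79 and 2.601 against 1.82, 1.35 and 1.57 CPM (log2 fold change -0.76, edgeR adjusted p = 0.0366). Its call held only when siErk3_BSA 1 was left out, with adjusted p of 0.0817 to 0.205 without the others, 0.0583 with DESeq2 and 0.412 with the 18S covariate. The respiratory chain list had 0 of 76 measured members called by edgeR and 0 by DESeq2, beside 0.785% of all genes tested. Of the 76, 6 had an unadjusted p below 0.05, against 10.6% of all genes tested, and the median log2 fold change was -0.01.

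Among membrane, matrix and signaling proteins, Col13a1, a collagen with a membrane anchor found at the neuromuscular junction, was at 10.9, 9.84 and 10.3 CPM in siNTC_BSA and 6.25, 6.66 and 6.87 CPM in siErk3_BSA. The groups were tight and apart from each other (log2 fold change -0.64, SE 0.12, edgeR adjusted p = 0.00153), and with the 18S covariate the adjusted p was 0.0904. Tac4, a precursor of tachykinin peptides, was at 1.97, 2.42 and 1.702 CPM in siNTC_BSA and 0.803, 0.801 and 0.68 CPM in siErk3_BSA, a fall to 37.5% of the control at a level where 1 library holds few counts (log2 fold change -1.43, SE 0.27, edgeR adjusted p = 0.0023). Its adjusted p was 0.052 without siNTC_BSA 2 and 0.197 with the 18S covariate. Cacna2d2, an auxiliary subunit of voltage-gated calcium channels, went from 10.5, 11.2 and 10.1 to 7.01, 7.802 and 8.09 CPM (log2 fold change -0.47, edgeR adjusted p = 0.0146). It lost the call without siNTC_BSA 2, siErk3_BSA 1 or siErk3_BSA 2, at adjusted p of 0.143, 0.119 and 0.0555, and with the 18S covariate, at 0.189. Rundc3a, a RUN domain protein, was at 16.9, 20.4 and 18.4 against 14.03, 12.5 and 15.3 CPM (log2 fold change -0.41, edgeR adjusted p = 0.00797), and without siNTC_BSA 2 or siErk3_BSA 2 its adjusted p was 0.153 and 0.117, and with the 18S covariate 0.186. Efemp1, the extracellular matrix protein fibulin-3, was at 2.04, 2.17 and 2.17 against 1.01, 1.096 and 1.15 CPM (log2 fold change -0.97, edgeR adjusted p = 0.0269). The silenced mean was 51.03% of the control, but the call was lost with any one library left out, at adjusted p of 0.0569 to 0.125, and with the 18S covariate, at 0.12. The log2 fold change stayed at -0.92 or further from 0 in the former and was -1.15 with the covariate. Lgr6, a receptor of R-spondins, had the weakest adjusted p among the falls (4.92, 6.75 and 5.86 against 4.77, 3.42 and 3.51 CPM, log2 fold change -0.61, edgeR adjusted p = 0.0496), and did not pass without siNTC_BSA 2, siNTC_BSA 3, siErk3_BSA 2 or siErk3_BSA 3, at 0.139 to 0.334. For Lgr6 the value was 0.0905 with DESeq2, 0.0533 with filterByExpr, 0.0551 with a replicate block and 0.897 with the 18S covariate. With the covariate its log2 fold change was -0.13.

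The remaining named protein-coding falls had adjusted p above 0.03 and rested on most or all of the libraries. Fam43a was at 7.73, 10.4 and 9.03 against 6.803, 6.12 and 6.44 CPM (log2 fold change -0.51, edgeR adjusted p = 0.0303), and it kept the call only without siNTC_BSA 1, with adjusted p of 0.0633 to 0.292 without the others and 0.586 with the 18S covariate. Tox2, a protein with an HMG box that binds DNA, was at 1.48, 1.54 and 1.32 against 0.718, 0.464 and 0.751 CPM (log2 fold change -1.15, edgeR adjusted p = 0.0429). Zswim7, part of a complex in recombination repair, was at 6.67, 6.29 and 6.62 against 4.94, 4.17 and 4.65 CPM (log2 fold change -0.50, edgeR adjusted p = 0.0431). Both lost the call when any one library was left out, at adjusted p of 0.0899 to 0.241 for Tox2 and 0.0701 to 0.239 for Zswim7, and with the 18S covariate, at 0.0785 and 0.191, where the log2 fold changes were -1.54 and -0.54. Tox2 also missed the threshold with DESeq2, at 0.102, and with a replicate block, at 0.0561. Dnase1l2, a relative of deoxyribonuclease I, was at 1.62, 2.38 and 1.84 against 1.06, 1.14 and 1.07 CPM (log2 fold change -0.86, edgeR adjusted p = 0.0366) and passed only without siNTC_BSA 1, with 0.0774 to 0.317 without the others, 0.0831 with DESeq2 and 0.42 with the 18S covariate. Serpinb9g, from a cluster of closely related protease inhibitors whose read pairs may be shared, was at 1.05, 0.708 and 0.804 against 0.422, 0.253 and 0.215 CPM (log2 fold change -1.48, edgeR adjusted p = 0.0436). It held its call only without siErk3_BSA 1, with 0.0793 to 0.273 without the others and 0.197 with the 18S covariate. For each of these 5 genes the silenced libraries lay below all control libraries.

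Both named long noncoding RNAs among the falls are nuclear. Neat1, the scaffold of paraspeckles, was at 368, 319 and 311 CPM in siNTC_BSA and 239, 208 and 234 CPM in siErk3_BSA, a fall to 68.2% of the control without overlap (log2 fold change -0.55, SE 0.10, edgeR adjusted p = 0.00237). Malat1, of nuclear speckles, was at 2799, 2583 and 2418 CPM in siNTC_BSA and 1863, 1684 and 1972 CPM in siErk3_BSA (log2 fold change -0.50, SE 0.12, edgeR adjusted p = 0.0312). The genes lie 22036 bases apart on chromosome 19, both on the minus strand. Per kilobase of exon the mean over the 6 libraries was 318 CPM for Malat1 and 13.5 CPM for Neat1, so Malat1 was the more abundant per length. Neat1 was called in each fit that left out 1 library, whereas Malat1 was called only in the one without siNTC_BSA 3, with adjusted p of 0.0664 to 0.216 in the others, and it was 0.137 with DESeq2 and 0.0599 with filterByExpr. With the 18S covariate the adjusted p was 0.072 for Neat1 and 0.45 for Malat1.

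The 18S gene Rn18s-rs5 also fell, and here the libraries did not separate by group. It is a ribosomal RNA gene whose product carries no poly(A) tail and is largely removed by poly(A) selection, and it took 2.56%, 7.17% and 5.64% of the counts in siNTC_BSA and 2.96%, 1.82% and 1.497% in siErk3_BSA. The control library siNTC_BSA 1 lay inside the range of the silenced libraries, and the exact two-sided permutation p for the share was 0.2 (5.12% ± 2.35 against 2.10% ± 0.77, SD, n = 3 each). In the other groups the share was 8.39% to 12.9% in siMk5_BSA and 1.71% to 6.77% in the palmitic acid libraries. The gene was called (log2 fold change -1.32, edgeR adjusted p = 0.032), but not without siNTC_BSA 2, siNTC_BSA 3, siErk3_BSA 2 or siErk3_BSA 3, at adjusted p of 0.118 to 0.273, nor with DESeq2 (0.123), filterByExpr (0.0749) or a replicate block (0.0521). With the 18S share as a covariate its own log2 fold change was 0.04. The mitochondrial ribosomal RNA genes mt-Rnr1 and mt-Rnr2, chosen after their values were seen, were not called, at log2 fold changes of -0.19 and -0.10 (edgeR adjusted p = 0.443 and 0.718).

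Lars2, the mitochondrial leucyl-tRNA synthetase, had been placed on a technical list with the ribosomal RNA genes, of which 5 were measured and Rn18s-rs5 and Lars2 were called. It had its libraries in the same order as the 18S share within each group, at 827, 1804 and 1325 CPM in siNTC_BSA and 733, 409.8 and 382 CPM in siErk3_BSA. Its lowest control value was in siNTC_BSA 1 and its highest silenced value in siErk3_BSA 1, and these were close (log2 fold change -1.38, SE 0.29, edgeR adjusted p = 0.00675). Without siNTC_BSA 2, siErk3_BSA 2 or siErk3_BSA 3 its adjusted p was 0.108, 0.0843 and 0.103, and with the 18S covariate it was 0.273, at a log2 fold change of -0.30. The predicted genes Gm15564 (20.4, 54.6 and 40.4 against 23.4, 11.9 and 11.8 CPM) and Gm55276 (0.141, 0.625 and 0.52 against 0.127, 0.0843 and 0.0358 CPM), and the unnamed gene ENSMUSG00000118642 (4.496, 13.2 and 10.5 against 6.84, 3.37 and 3.83 CPM) that overlaps the end of Rn18s-rs5 on the other strand, also had siNTC_BSA 1 as the lowest control library. They were chosen after their values were seen. Of the 43 fallen genes, the groups overlapped for 3, Rn18s-rs5, Gm15564 and ENSMUSG00000118642. The library siNTC_BSA 1 was also the lowest control library for other fallen genes, among them Lgr6, Fam43a, Card14, Cox8b and Apol8. For Mapk6 and Cd28 it was the highest, and the control libraries of Apol8 were close together. The part of the 18S share in the falls was not tested beyond the fit with it as a covariate.

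**Figure D3:**
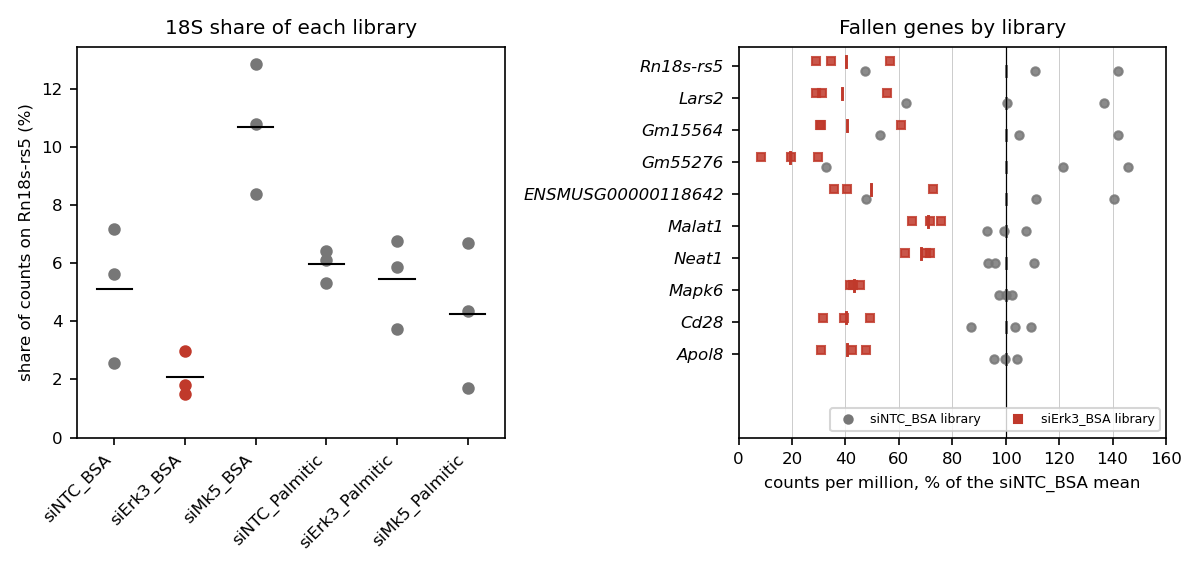
Left, the share of counts on Rn18s-rs5 in each of the 18 libraries by group in percent, with group means as lines. Right, 10 fallen genes in the 6 libraries as a percentage of the siNTC_BSA mean, where the first 5 have siNTC_BSA 1 far below the other control libraries and Mapk6, Cd28 and Apol8 have control libraries close together.

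Of the 58 genes that rose outside the interferon and fiber lists, 54 have a name, and the groups did not overlap for any of them. Their median rise of 0.58 on the log2 scale was smaller than that of the interferon list genes that rose, 1.01, and 11 of the 58 rose more than 2-fold. In fits that left out 1 library their number was between 32 and 46, with 32 without siNTC_BSA 2 and 37 without siErk3_BSA 3. With the 18S share as a covariate their number was 27, of which 19 were among the 58. The sizes changed less than the calls. With the covariate the median log2 fold change of the 58 was 0.56, against 0.58 without it. For 18 of the 58 the rise was at least as large with the covariate, and 0 changed sign. Their median SE was 0.15 with the covariate, against 0.11. Of the 58, 16 were called higher in all 14 alternatives. They include Dcx, Frem2, Actn2 and Nrk, which are among those of smallest adjusted p.

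The risen genes are likewise sorted by hand, beginning with Dcx and the genes that share its chromosome. Dcx, doublecortin, a microtubule-binding protein of migrating neurons, was at 4.99, 3.21 and 4.59 CPM in siNTC_BSA and 11.9, 14.8 and 13.9 CPM in siErk3_BSA. Each silenced library had more than 2 times the level of each control library (log2 fold change 1.70, SE 0.14, edgeR adjusted p = 3.17e-09). Nrk, a kinase of the germinal center kinase family known from placenta and developing muscle, was at 0.141, 0.25 and 0.236 CPM in siNTC_BSA and 2.07, 1.43 and 1.395 CPM in siErk3_BSA, a rise from a few counts per library to a clearly measured level (log2 fold change 2.86, SE 0.37, edgeR adjusted p = 1.3e-05). Both genes lie on the X chromosome, as do 9 of the 58 risen genes (15.5%), against 667 of all genes tested (3.06%) and 0 of the 43 that fell. Prr32, also X-linked, rose from 7.24, 6.04 and 6.71 to 10.2, 11.7 and 12.9 CPM (log2 fold change 0.82, edgeR adjusted p = 7.76e-05). Arhgef6, an exchange factor for small GTPases, rose from 10.4, 9.17 and 9.93 to 13.7, 13.9 and 15.8 CPM (log2 fold change 0.57, edgeR adjusted p = 0.000193). Klhl13, an adaptor of a ubiquitin ligase, rose from 42.6, 33.2 and 32.9 to 50.9, 51.1 and 54.4 CPM (log2 fold change 0.54, edgeR adjusted p = 0.000219). In all 5 the lowest silenced library was above the highest control library. Arhgef6 and Klhl13 had adjusted p of 0.0539 and 0.0631 with the 18S covariate, at log2 fold changes of 0.46 and 0.39. Rai2, Rnf128, Tcp11x2 and Tex16 complete the X-linked genes and were chosen after their values were seen.

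Frem2, a large protein of the basement membrane, was at 25.1, 22.1 and 24.9 CPM in siNTC_BSA and 35.4, 40.1 and 42.7 CPM in siErk3_BSA, with siErk3_BSA 3 highest and siNTC_BSA 2 lowest (log2 fold change 0.72, SE 0.08, edgeR adjusted p = 7.16e-07). Frem2 acts in a complex with Fras1, and Grip1 brings both to the cell surface. These 2 partners also rose and were chosen after their values were seen, Fras1 at 13.3, 11.8 and 10.6 against 16.01, 15.2 and 17.4 CPM (log2 fold change 0.46, edgeR adjusted p = 0.00434), and Grip1 at 0.421, 0.333 and 0.378 against 1.27, 0.886 and 1.36 CPM (log2 fold change 1.65, edgeR adjusted p = 0.0027). Frem1, another member of the complex chosen in the same way, had a log2 fold change of 0.15 and was not called. Of 45 measured genes of the extracellular matrix list, 0 were called by edgeR and 0 by DESeq2, 7 had an unadjusted p below 0.05 (against 10.6% of all genes tested), and the median log2 fold change was 0.07.

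Some genes of the cytoskeleton rose. The spectrin gene Sptb, chosen after its values were seen, rose (3.37, 3.04 and 2.84 against 4.86, 4.93 and 4.54 CPM, log2 fold change 0.64, edgeR adjusted p = 0.0287), whereas the widely expressed Sptan1 and Sptbn1, chosen likewise, had log2 fold changes of 0.10 and 0.06 and were not called. Actn2, the alpha-actinin of the Z-disc, was at 152, 163 and 171 CPM in siNTC_BSA and 210.0, 222 and 246 CPM in siErk3_BSA (log2 fold change 0.48, SE 0.05, edgeR adjusted p = 1.74e-06) and was the only one of 30 genes of the myogenic differentiation list to be called. Limch1, a regulator of nonmuscle myosin, was at 36.2, 35.8 and 37.2 CPM in siNTC_BSA and 49.5, 45.97 and 49.4 CPM in siErk3_BSA (log2 fold change 0.41, SE 0.06, edgeR adjusted p = 6.85e-05). Its groups were tight, so that a rise to 133% of the control passed. Kank1, which links focal adhesions to microtubules, was at 18.5, 17.3 and 16.6 CPM in siNTC_BSA and 21.1, 23.03 and 24.7 CPM in siErk3_BSA (log2 fold change 0.40, SE 0.07, edgeR adjusted p = 0.00167). Without siNTC_BSA 3 or siErk3_BSA 3 its log2 fold changes of 0.36 and 0.35 missed the fold criterion. With the 18S covariate the adjusted p was 0.0579, at a log2 fold change of 0.38.

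**Figure D4:**
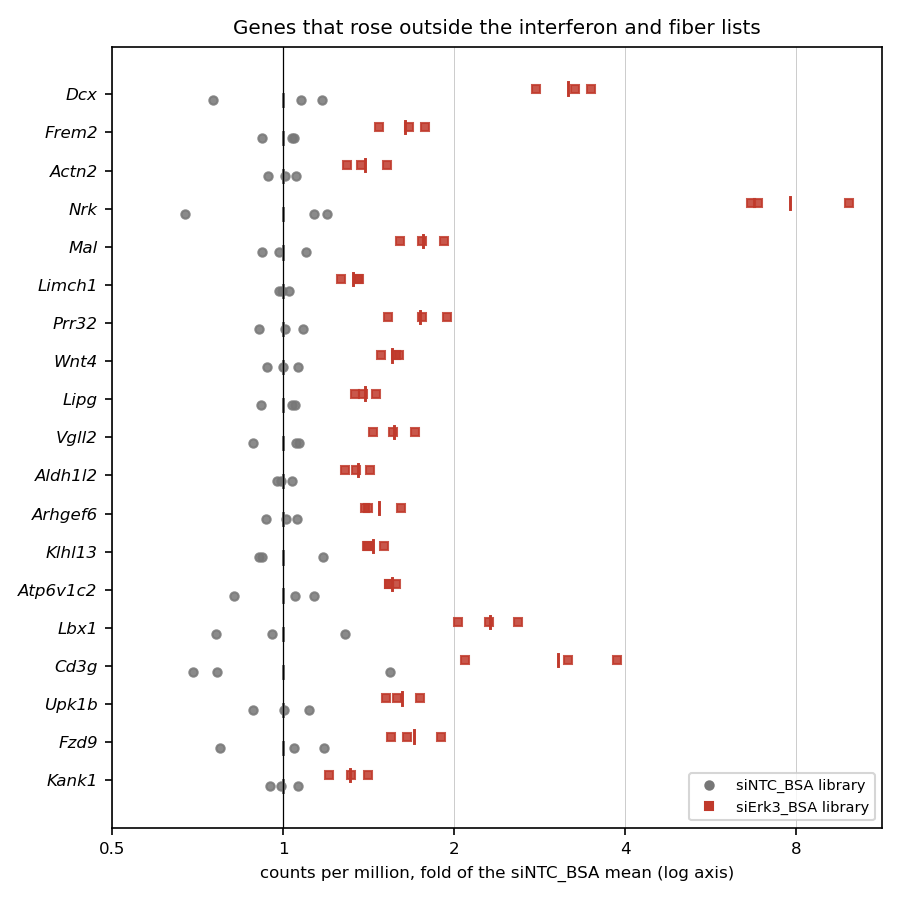
Points are single libraries of siNTC_BSA (circles) and siErk3_BSA (squares) as a fold of the siNTC_BSA mean on a log axis, for 19 genes of small adjusted p that rose outside the interferon and fiber lists, and bars are group means. Nrk has the largest rise of the 19, with a silenced mean of 782% of the control, and Dcx and Cd3g follow with 318% and 304%.

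Wnt4, Fzd9, Vgll2, Lbx1 and Gata3 are known from development. Wnt4, a secreted Wnt ligand, was at 7.38, 7.88 and 8.37 CPM in siNTC_BSA and 12.5, 11.7 and 12.6 CPM in siErk3_BSA (log2 fold change 0.63, SE 0.09, edgeR adjusted p = 8.99e-05). Fzd9, a Wnt receptor, was at 3.93, 2.92 and 4.45 CPM in siNTC_BSA and 6.21, 7.13 and 5.83 CPM in siErk3_BSA (log2 fold change 0.78, SE 0.14, edgeR adjusted p = 0.000953). They were apart in all libraries, but Wnt4 was the only gene called among the 38 measured on the Wnt and Notch list, whose median log2 fold change was 0.07. Vgll2, a cofactor of TEAD factors in muscle, was at 7.52, 9.04 and 8.94 CPM in siNTC_BSA and 12.2, 13.3 and 14.5 CPM in siErk3_BSA (log2 fold change 0.64, SE 0.09, edgeR adjusted p = 9.85e-05), and it was the only one called of 20 genes on the YAP and TEAD list. Lbx1, the homeobox factor of migrating muscle precursors, was at 1.33, 0.792 and 0.993 CPM in siNTC_BSA and 2.11, 2.699 and 2.397 CPM in siErk3_BSA (log2 fold change 1.26, SE 0.22, edgeR adjusted p = 0.00087). Fzd9 and Lbx1 had adjusted p of 0.0514 and 0.0595 with the 18S covariate, at log2 fold changes of 0.74 and 1.18. Gata3, a transcription factor of T cells and epithelia chosen after its values were seen, rose from 4.21, 4.21 and 4.54 to 6.46, 6.71 and 6.05 CPM (log2 fold change 0.56, edgeR adjusted p = 0.0267).

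Other genes of the 58 have various known roles. Mal, a proteolipid of membrane rafts, was at 7.87, 6.58 and 7.05 CPM in siNTC_BSA and 12.6, 11.5 and 13.8 CPM in siErk3_BSA (log2 fold change 0.84, SE 0.11, edgeR adjusted p = 2.61e-05). Lipg, endothelial lipase, was at 17.1, 19.3 and 19.6 CPM in siNTC_BSA and 27.2, 25.01 and 25.8 CPM in siErk3_BSA (log2 fold change 0.47, SE 0.07, edgeR adjusted p = 8.99e-05). Aldh1l2, the mitochondrial enzyme that oxidizes formyltetrahydrofolate, was at 26.6, 27.1 and 28.3 CPM in siNTC_BSA and 36.8, 35.2 and 38.9 CPM in siErk3_BSA (log2 fold change 0.43, SE 0.07, edgeR adjusted p = 0.000159). For these genes the control libraries were within a narrow range and every silenced library lay above it. Atp6v1c2, a subunit of the proton pump of acidic organelles, was at 6.74, 4.88 and 6.24 CPM in siNTC_BSA and 9.42, 9.15 and 9.16 CPM in siErk3_BSA (log2 fold change 0.66, SE 0.11, edgeR adjusted p = 0.000519). Upk1b, a uroplakin of the bladder lining, was at 5.69, 4.54 and 5.15 CPM in siNTC_BSA and 7.77, 8.14 and 8.94 CPM in siErk3_BSA (log2 fold change 0.71, SE 0.12, edgeR adjusted p = 0.000912). Cd3g, a chain of the T cell receptor complex, was at 0.843, 0.417 and 0.378 CPM in siNTC_BSA and 1.14, 1.73 and 2.11 CPM in siErk3_BSA (log2 fold change 1.71, SE 0.30, edgeR adjusted p = 0.000871). Upk1b and Cd3g did not pass with the 18S covariate, at adjusted p of 0.175 and 0.187 and log2 fold changes of 0.54 and 1.21. Stc2, a secreted glycoprotein, was the only one called of 23 genes of the integrated stress response list (7.94, 6.79 and 6.998 against 9.04, 9.87 and 10.6 CPM, log2 fold change 0.46, edgeR adjusted p = 0.00404). It did not pass without siNTC_BSA 2 or siErk3_BSA 3, at 0.0647 and 0.0517, or with the 18S covariate, at 0.203, where the log2 fold change was 0.32. Some pairs were chosen after their values were seen for what they share. Grb10 and Zdbf2, both imprinted genes, rose from 0.703, 0.75 and 0.757 to 2.15, 1.86 and 2.11 CPM (log2 fold change 1.46, edgeR adjusted p = 0.00313) and from 0.562, 0.875 and 1.04 to 1.82, 2.404 and 1.75 CPM (log2 fold change 1.21, edgeR adjusted p = 0.00514). Mybl2 and Cdt1, of the cell cycle, rose from 8.08, 7.79 and 7.52 to 11.8, 11.9 and 10.4 CPM (log2 fold change 0.54, edgeR adjusted p = 0.00219) and from 7.94, 9.67 and 9.36 to 11.8, 11.7 and 12.1 CPM (log2 fold change 0.38, edgeR adjusted p = 0.0389). Of the cell cycle list, 0 of the 33 genes were called by edgeR and 0 by DESeq2, with 12 at an unadjusted p below 0.05 (against 10.6% of all genes tested) and a median of 0.11.

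Members of the interferon-stimulated list gave 64 rises and 0 falls by edgeR among the 229 of 266 genes measured, and 121 had an unadjusted p below 0.05, against 10.6% of all genes tested. DESeq2 called 65 higher and 1 lower. The median over the measured members was 0.27, against 0.02 over all genes tested, and their summed level was 3966, 4198 and 4084 CPM in siNTC_BSA and 5136, 4836 and 4753 CPM in siErk3_BSA. All silenced sums lay above all control sums. The 3 members of smallest adjusted p were H2-K1, its partner B2m and the RNA sensor Oas2. H2-K1, a class I antigen-presenting molecule, rose from 57.3, 71.9 and 67.9 to 122, 109 and 112 CPM (log2 fold change 0.79, edgeR adjusted p = 7.52e-08). B2m rose from 164, 169 and 163 to 248, 225 and 240.3 CPM (log2 fold change 0.52, edgeR adjusted p = 1.25e-07), and Oas2 from 1.76, 2.88 and 1.37 to 19.6, 11.7 and 8.59 CPM (log2 fold change 2.67, edgeR adjusted p = 6.97e-07). Oas2 differed by more than 2-fold among the silenced libraries themselves. Iigp1c, which was counted outside the list, is a close relative of the listed Iigp1 and rose from 0, 0.167 and 0.236 CPM to 1.35, 0.717 and 0.823 CPM, and read pairs may be shared between the 2 genes. It and the predicted genes beside Samd9l and Ddx60, Gm20559, Gm43197 and 4930512H18Rik, were chosen after their values were seen, and they mean that the list may not hold all genes that rise with its members.

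Of the 68 measured fiber-type genes, 6 rose and 0 fell by edgeR, beside 0.588% and 0.198% of all genes tested. An unadjusted p below 0.05 was reached by 28 (against 10.6% of all genes tested), and the median was -0.02. The 6 that rose were the perinatal, slow, embryonic and atrial myosin heavy chains Myh8, Myh7, Myh3 and Myh6, and Mybpc1 and Smtnl2. Myh6 and Smtnl2 were chosen after their values were seen. Myh8 rose from 352, 329 and 345 to 478, 478 and 559.9 CPM (log2 fold change 0.56, edgeR adjusted p = 1.25e-07). Myh7 rose from 143, 139 and 146 to 195, 186 and 227 CPM (log2 fold change 0.51, edgeR adjusted p = 6.97e-07), and Mybpc1 from 104, 86.3 and 90.5 to 124, 125 and 136 CPM (log2 fold change 0.46, edgeR adjusted p = 4.46e-06). Myh3 rose from 2480, 2335 and 2479 to 3055, 3025 and 3502 CPM (log2 fold change 0.39, edgeR adjusted p = 1.44e-05), close to the fold criterion, which it missed without siNTC_BSA 2 and without siErk3_BSA 3, at 0.37 and 0.33. It also missed it with filterByExpr, with only the 6 libraries, without Rn18s-rs5 and with the 18S covariate, at 0.37 each, and where 1 count in total was enough, at 0.38, and Mybpc1 missed it with the 18S covariate, at 0.35. Of the 30 glycolytic fiber genes 0 were called by edgeR and 0 by DESeq2, with 12 at an unadjusted p below 0.05 and a median of -0.05. Of the 32 measured oxidative fiber genes 4 rose, with a median of -0.01, and of the 6 developmental fiber genes 2 rose, with a median of 0.48. Some fiber-type genes had an edgeR adjusted p below 0.05 but missed the fold criterion. Of these, Mb (-0.22) and Tnni2 (-0.22) were lower, and Myl6b (0.30), Actc1 (0.20) and Ankrd2 (0.25) were higher, all chosen after their values were seen. Myosin heavy chains are near-identical over long stretches, so their counts may share read pairs.

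The other 25 lists, with 670 distinct genes measured, held 4 risen genes, Actn2, Stc2, Vgll2 and Wnt4, and 1 fallen gene, Mapk6. In 20 of the 25 no member was called by edgeR or by DESeq2, and the medians of the 25 lay between -0.06 and 0.14. The highest median was that of sterol synthesis, where 16 of 22 genes had an unadjusted p below 0.05, against 10.6% of all genes tested, and 0 were called by either tool, with the most abundant, Srebf2, at a log2 fold change of 0.09. Ribosomal protein genes came next in the share at an unadjusted p below 0.05, with 16 of 32, 0 called by either edgeR or DESeq2, a median of 0.09 and the most abundant, Rpl4, at 0.05. In the lists of genes driven by the classical ERK pathway, of inflammation and of fatty acid use, 0 of 30, 0 of 26 and 0 of 32 measured genes were called by edgeR and none by DESeq2, with 5, 4 and 4 at an unadjusted p below 0.05. With 0.785% of all genes tested called, lists of this size would hold few or no called genes in any case. Their most abundant members Junb, Csf1 and Hadha were at 0.07, -0.02 and -0.02.

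Promoter sequence was read for the letters of known motifs, as a description of the called genes. RefSeq windows of 300 bases around the gene start (build GRCm38.p6, while the counts are on GRCm39) were found for 131 of the 171 called genes. The core of the interferon-stimulated response element, written TTTC, any 2 bases, TTTC and read on both strands, was present in 28 of 50 risen interferon list genes (56%), in 3 of 46 risen genes outside the lists (6.52%), in 3 of 29 fallen genes (10.3%) and in 0 of 6 fiber genes, against 482 of 12771 genes tested (3.77%). The windows below give 20 bases on either side of the match, or up to the end of the window, with the match in capitals, for 3 risen interferon list genes, of which Trim30a and Bst2 were chosen after their values were seen, and for the fallen and the other risen genes that hold one.
B2m chr2:122147528-122147577 plus strand: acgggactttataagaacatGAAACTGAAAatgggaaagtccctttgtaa
Trim30a chr7:104465200-104465249 minus strand: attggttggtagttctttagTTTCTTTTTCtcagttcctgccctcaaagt
Bst2 chr8:71537573-71537622 minus strand: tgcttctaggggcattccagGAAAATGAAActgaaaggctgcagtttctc
Asb14 chr14:26894424-26894473 plus strand: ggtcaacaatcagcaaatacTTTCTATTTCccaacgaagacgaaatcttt
Cxcl14 chr13:56296694-56296743 minus strand: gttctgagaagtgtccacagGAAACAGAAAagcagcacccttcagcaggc
Tox2 chr2:163225428-163225477 plus strand: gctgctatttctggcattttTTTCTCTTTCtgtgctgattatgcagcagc
Asgr2 chr11:70092552-70092601 plus strand: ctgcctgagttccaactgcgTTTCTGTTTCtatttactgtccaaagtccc
Kif1a chr1:93082471-93082520 minus strand: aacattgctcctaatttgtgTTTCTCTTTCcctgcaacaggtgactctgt
Plekha4 chr7:45529608-45529648 plus strand: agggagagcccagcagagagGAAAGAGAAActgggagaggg
The capitals in the last 6 windows, of genes that fell or that rose outside the lists, are this core or its reverse complement, as in B2m, Trim30a and Bst2. A match is a description of these letters and not of binding. The interferon list was made of interferon-stimulated genes, so its share cannot be told apart from what list membership alone would give. The share among list members that were not called was not counted. Other motifs were read the same way. The outline of a MEF2 site, CTA, any 4 bases, TAG, was in 4 of 29 fallen genes (13.8%; Gm15564, Sema4d, Serpinb9g and Tox2) and 3 of 46 risen genes outside the lists (6.52%), against 3.91% of genes tested. The E-box CACGTG was in 2 of 29 fallen genes (6.9%; Padi4 and Ppp1r3c), in 7 of 46 risen genes outside the lists (15.2%) and in 10.7% of genes tested. The AP-1 letters TGANTCA were in 3 of 29 (10.3%; Efemp1, Padi4 and Sema4d), in 7 of 46 risen genes outside the lists (15.2%), in 13 of 50 risen interferon list genes (26%) and in 7.18% of genes tested.

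The silencing in palmitic acid medium, siErk3_Palmitic against siNTC_Palmitic, shares no library with the comparison in BSA. It changed 121 genes (0.556%), with 94 higher (0.432%) and 27 lower (0.124%). Of the genes that fell in BSA, 9 also fell there, 20.9% of the 43 and 33.3% of the 27. These are Mapk6, Cd28, Cxcr6, Cxcl14, Asprv1, Spink4, Car3, Aldh3b3 and the predicted gene Gm48395, and no fallen gene rose there. Mapk6 was at 215, 236 and 244 CPM in siNTC_Palmitic and 131, 119 and 109 CPM in siErk3_Palmitic (log2 fold change -0.95, edgeR adjusted p = 1.21e-12), and its values in both palmitic groups lay above those of the matching BSA group. Spink4 fell by a similar amount in both media, -1.34 in BSA and -1.41 with palmitic acid, and Asprv1 by -1.28 and -1.06. Cxcl14, whose call in BSA rested on all 6 libraries, was at 29.3, 27.04 and 21.3 CPM in siNTC_Palmitic and 9.11, 14.4 and 18.8 CPM in siErk3_Palmitic (log2 fold change -0.89, edgeR adjusted p = 0.000581). Over the 43 genes the median in palmitic acid was -0.20, with 38 below 0 (88.4%), against 51.1% of all genes tested.

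Of the 58 rises outside the lists, 26 also rose with palmitic acid, 44.8% of the 58 and 52% of the 50 there, and 57 of the 58 had a log2 fold change above 0 (98.3%), against 48.6% of all genes tested. Dcx rose by 1.70 and 1.68, Nrk by 2.86 and 2.50, and Frem2 by 0.72 and 1.03 on the log2 scale in BSA and palmitic acid. Of the interferon list genes, 27 rose in both media (42.2% of 64 and 73% of 37), and of the fiber genes 4 (66.7% of 6 and 57.1% of 7), Mybpc1, Myh7, Myh8 and Smtnl2. The median over the 64 interferon genes was 1.01 in BSA and 0.39 with palmitic acid, and over the 58 other genes 0.58 and 0.45. These genes were picked by their call in BSA, which favors a larger median there, and over all 229 measured interferon list genes the medians were 0.27 and 0.23.

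The difference between media was itself tested for each gene. It passed at an adjusted p below 0.05 for 9 of the 21772 genes (0.0413%), of which 5 are interferon list genes that rose in BSA, 1 is the fallen gene Apol8, and F2r, Ccn1 and Gja5 were not called in BSA. Apol8 was at 3.105, 3.15 and 2.88 CPM in siNTC_Palmitic and 3.15, 2.79 and 3.18 CPM in siErk3_Palmitic, so those groups overlapped (difference of log2 fold changes -1.28, edgeR adjusted p = 0.0443). The 5 interferon list genes had a higher control level in palmitic acid medium, with siNTC means of 0.75 CPM in BSA and 44.9 CPM in palmitic acid for Usp18 and 2.21 and 235 CPM for Ifit1, so the differences are between rises from unlike levels. The adjusted p of this test was 0.524 for Mapk6, 0.518 for Cd28 and 0.419 for Lars2, although Lars2 had log2 fold changes of -1.38 and -0.02. For the other genes called in only 1 medium, a difference between media was therefore not shown. The count of 9 itself rests on single libraries. It was 0 without siNTC_BSA 1, siNTC_BSA 3, siErk3_BSA 1, siErk3_BSA 2 or siErk3_Palmitic 2, 1 without siNTC_BSA 2, 2, 3 and 2 without siNTC_Palmitic 1, 2 and 3, 29 without siErk3_Palmitic 3 and 16 with DESeq2.

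**Figure D5:**
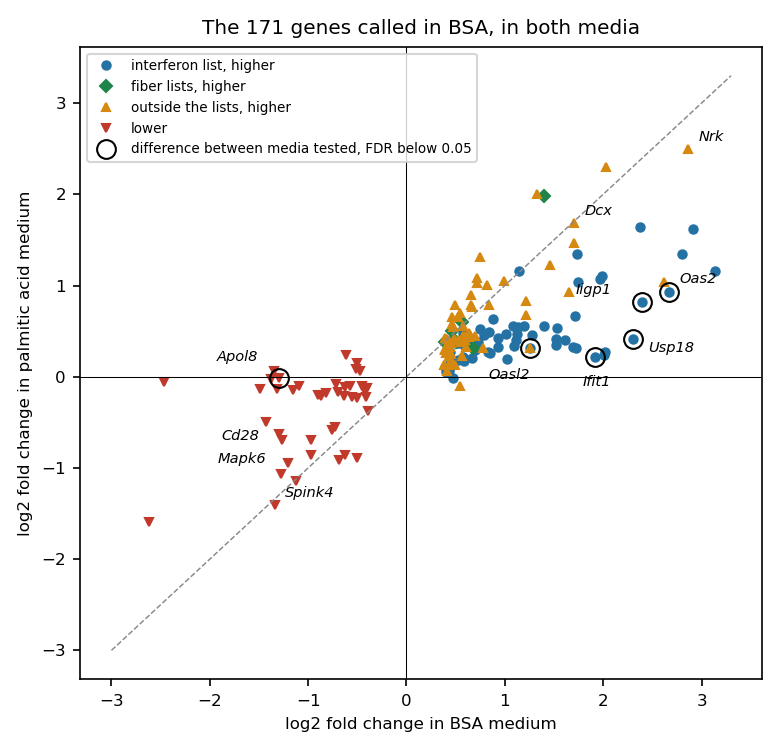
Each point is one of the 171 genes called in BSA, by its log2 fold change after Erk3 silencing in BSA (horizontal) and in palmitic acid medium (vertical), with a dashed line of equal change. Circles mark the 6 of these genes whose difference between media passed the test, and the median of the 43 fallen genes is -0.76 in BSA and -0.20 in palmitic acid.

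Silencing of Mk5 in the same medium gives a further reference for the fallen genes, but siMk5_BSA is read against the same siNTC_BSA libraries, so both changes share their control and are given only side by side. siErk3_BSA against siMk5_BSA, which shares the siErk3_BSA libraries, changed 128 genes (0.588%). Mapkapk5 was at 1.18, 2.01 and 1.703 CPM in siMk5_BSA, and its difference from siNTC_BSA did not pass the test (log2 fold change -0.61, edgeR adjusted p = 0.469). The silencing of Mk5 is therefore taken from the labels and from the paper, which reports it at the protein level by Western blot. Mapk6 RNA was at 136, 135 and 137 CPM in siMk5_BSA, at the level of siNTC_BSA. The paper reports, however, that Erk3 protein was lower in C2C12 cells after Mk5 silencing. The RNA level therefore does not mean that Erk3 protein was intact in siMk5_BSA. Cd28 was at 4.27, 4.58 and 4.33 CPM, between both other groups, with log2 fold changes of -1.29 for siErk3 and -0.54 for siMk5, and the levels of siErk3 and siMk5 differed (log2 fold change -0.76, edgeR adjusted p = 0.00495). Apol8, at 2.57, 2.47 and 1.45 CPM, Asprv1, at 1.96, 2.21 and 1.29 CPM, and Cxcr6, at 4.099, 3.88 and 2.48 CPM, were each not called between siErk3 and siMk5, with edgeR adjusted p of 0.335, 0.707 and 0.491. For Neat1 the values were 268, 229 and 215 CPM in siMk5_BSA and the adjusted p was 0.934, and for Padi4 2.96, 2.82 and 2.22 CPM and 0.754. Among the rises, Dcx was at 6.58, 6.19 and 7.07 CPM in siMk5_BSA and differed from siErk3 (log2 fold change 1.04, edgeR adjusted p = 5.34e-06), as did Nrk (2.55, edgeR adjusted p = 3.19e-05) and Frem2 (0.56, edgeR adjusted p = 3.19e-05). Rn18s-rs5, Lars2, Gm15564, Gm55276 and ENSMUSG00000118642 were also lower in siErk3_BSA than in siMk5_BSA, where the 18S share was highest.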

How the data were processed

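The authors deposited a count of read pairs per gene for each library, made with featureCounts 2.0.0 on GRCm39 with Ensembl release 105 (strand setting 2, minimum mapping quality 3 per the file headers), while the labels name mm10. The 18 libraries form 6 groups of 3, and 6 of them, siErk3_BSA and siNTC_BSA, form the comparison of the report. Total counts lay between 13041979 and 28496727, and counting error weighs most on genes with few counts. A table of log2 values was not used here. Symbols came from GENCODE M39 (Ensembl 116), which names 54749 of the 55414 genes.

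Genes whose counts sum to 10 or more were fitted with edgeR 4.0.16 in R 4.3.3, with limma 3.58.1 loaded, TMM scaling and a coefficient for each of the 6 groups. The quasi-likelihood test was adjusted by the Benjamini-Hochberg method, with calls at an adjusted p below 0.05 and a fold change above 1.3. The interaction with medium was called by the adjusted p alone. The fit was also run on simulated counts, and the outcome is not given here. Exact permutation tests compared single measures. The chi-square per gene between 2 libraries was taken over genes with 20 or more counts in the pair. Tables and plots were made in Python 3.11.15 (scipy 1.17.1, matplotlib 3.10.9, pandas 2.3.3, numpy 2.4.6).

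The text names Mapk6 and Mapkapk5, every fallen gene with a symbol that is not a predicted gene, with full values for the 15 of smallest adjusted p whose groups do not overlap, and the 20 such genes that rose outside the interferon and fiber lists. It also names the 3 genes of smallest adjusted p on each of those lists, called members of the other lists and the most abundant member of a list without one. Some genes that fall under this rule are not reported here. For genes outside this rule the text says that their values were known when they were chosen. Lists and members were chosen with earlier results of these data known. The alternatives were DESeq2 1.42.0, its size factors, filterByExpr, at least 1 count in total, only the 6 libraries, a replicate block, Rn18s-rs5 left out, the adjusted p alone and each library left out. The 18S share as a covariate was chosen after seeing the data. Set tests and the siRNA sequences were not used here.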

Additional observations from a re-analysis of the deposited data

Results flagged for a closer look

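The change after Erk3 silencing differed between BSA and palmitic acid medium for 9 genes by the edgeR interaction test. Values are the log2 fold change in BSA minus that in palmitic acid medium. It was 1.89 for Usp18, 0.32 for F2r, 1.70 for Ifit1 and 0.38 for Ccn1 (edgeR adjusted p = 0.0407 for each). For Gja5 it was -0.58, for Apol8 -1.28 and for Oas2 1.73 (edgeR adjusted p = 0.0443 for each), and for Oasl2 0.94 and for Iigp1 1.58 (edgeR adjusted p = 0.0493 for each). Usp18, Ifit1, Oas2, Oasl2 and Iigp1 are on the interferon list and rose in BSA, and Apol8 fell there. In palmitic acid medium Usp18, Oas2 and Iigp1 also rose, at log2 fold changes of 0.41, 0.93 and 0.82, as did Gja5, at 0.68. Ifit1 and Oasl2 were not called in that medium, at 0.22 and 0.31. Mean control levels of these interferon genes in BSA and palmitic acid were 0.75 and 44.9 CPM for Usp18, 2.21 and 235 CPM for Ifit1, 2.00 and 45.2 CPM for Oas2, 7.63 and 126 CPM for Oasl2 and 1.13 and 40.0 CPM for Iigp1, so their changes start from unlike levels. The genes other than Apol8 and Oas2 were chosen after their values were seen. No gene passed without siNTC_BSA 1 or 3, siErk3_BSA 1 or 2, or siErk3_Palmitic 2, where the edgeR count was 0 in each case, against 16 by DESeq2 on all libraries. The cause of these differences was not tested.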

How the results depend on the processing

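Changed genes in BSA numbered 171, and 113 to 144 with 1 library left out, 111 with the 18S share as a covariate, chosen after seeing the data, and 263 by the adjusted p alone. Other settings gave 158 (DESeq2) to 233 (at least 1 count, a fit to be read with care, as its adjusted p were extreme, with 0 for Rn18s-rs5). Risen genes numbered 128, 95 to 112 with 1 library left out and 195 by the adjusted p alone. Fallen genes numbered 43, 14 to 38 with 1 library left out, 81 with at least 1 count, 70 with only the 6 libraries, 10 with the covariate and 68 by the adjusted p alone. Outside the interferon and fiber lists these falls numbered 14 to 38, 78, 66, 10 and 65 in the same settings, and the 58 rises there 32 to 46 with 1 library left out, 27 with the covariate and 117 by the adjusted p alone. The cause of these shifts was not tested.

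Interaction genes numbered 9, 0 to 29 with 1 library left out and 16 with DESeq2. The palmitic acid comparison gave 121 genes, and 85 to 168 in the settings run. Mapk6 stayed between -1.28 and -1.17 in all settings run. The 18S difference was -3.03 points, and -4.31 to -2.01 with 1 library left out.

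Sign changed with the covariate for the fallen genes Rn18s-rs5 (0.04) and ENSMUSG00000118642 (0.08), and for genes near 0 that were not called: with the covariate Rpl4 (-0.01), Hsp90ab1 (-0.00), Ltbp2 (0.03) and Col3a1 (0.05); without siNTC_BSA 1 Junb (-0.05), Hadha (0.02), Fn1 (-0.05) and mt-Co1 (0.07); without siNTC_BSA 2 Csf1 (0.01); without siNTC_BSA 3 Ltbp2 (0.01); without siErk3_BSA 1 Csf1 (0.00) and mt-Co1 (0.02); and without siErk3_BSA 2 mt-Co1 (0.01). With 1 library left out, Junb ranged from -0.05 to 0.14, Ltbp2 from -0.09 to 0.01, Csf1 from -0.06 to 0.01 and mt-Co1 from -0.04 to 0.07. Fn1 was at -0.00 with DESeq2 and with its size factors and at -0.01 with filterByExpr, at least 1 count, only the 6 libraries and without Rn18s-rs5.

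Replicate numbers were not used to pair libraries in the main fit. Deviations from the group mean of siErk3_BSA and siNTC_BSA libraries with the same number had correlations across 12724 genes of -0.05, -0.03 and 0.03. No shared effect of the number was seen, but this cannot exclude that equal numbers share a culture or transfection, which the labels do not say. Genes are not independent replicates. Genes below 1 CPM, 3 of the falls among them, are least precise at this depth. The libraries come from 1 cell line with 1 pool of siRNAs per gene, so effects of a pool on transcripts other than its target cannot be told apart from effects of the lost kinase, and the protein was not measured here.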
